A study of Homo sapiens with 6 samples.

Results

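The genes described here are 39 genes of the ATF4 response: the factor ATF4 and its partner and feedback regulators, stress effectors, enzymes of asparagine, serine, folate-linked, proline and cysteine metabolism, amino acid transporters, cytosolic tRNA synthetases and the tRNA exporter XPOT. They were chosen by name, by their known place in the pathway, and 37 of the 39 had an entry among the 35819 genes of the count table used. CEBPB and SESN2 were not analysed here. Of the 37, 34 passed the filter on low counts and entered the test, while CHAC1, ALDH1L2 and SLC7A5 did not.

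The cells were HT1080, an established human fibrosarcoma line, grown in serum-containing medium with no treatment named in the labels. The TOP3B knockout was made by CRISPR cutting guided to exon 2 of TOP3B, the gene of a topoisomerase with both DNA and RNA as substrates, and was compared with wild-type (WT) HT1080 cells. The knockout was a single clone, named E2-2 in the series text, so effects of the edit and traits of the clone cannot be told apart. Total RNA depleted of ribosomal RNA was sequenced in 3 knockout and 3 WT libraries, to ask what TOP3B does to R-loops and to transcription.

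ATF4 is a transcription factor that is made when kinases of the integrated stress response phosphorylate the translation factor eIF2, for example when amino acids run short or proteins misfold. Its synthesis is controlled mainly at translation, through upstream reading frames in its mRNA, so its mRNA level is not a measure of its protein. ATF4 and its partners bind C/EBP-ATF response elements and switch on genes that import and make amino acids and charge tRNAs, together with genes such as TRIB3 that damp the response. In tumour lines this programme supplies asparagine, serine and glycine.

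The libraries held 17919106 to 20475280 estimated counts in all, and levels are given as CPM, the count relative to a library size scaled by the TMM method. The TOP3B transcript had 20.02, 19.3 and 18.5 CPM in the knockout libraries, against 30.5, 19.1 and 23.1 CPM in the WT libraries, and these gene-level values cannot check an edit within an exon. The series text names HCT116, a colon line, once for the WT cells. Of 10 mesenchymal markers 9 averaged at least 1 CPM, with a summed level of 14835 to 16308 CPM in the knockout and 22969 to 24385 CPM in WT libraries. The 9 colon epithelial markers in the table summed to 2.51 to 3.37 CPM in the knockout and 3.42 to 3.50 CPM in WT libraries, and 3 of them were listed at 0 in all 6 libraries. The third knockout library (numbered by its order among the samples) stood apart. Over 6544 abundant genes the SD of its log2 differences from the other knockout libraries was 0.62 and 0.60, against 0.24 between those, and 0.27 to 0.33 among WT libraries. Fold changes that turned on it are also given without it, and the plot of fitted changes shows both estimates for every tested member.

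What many of these genes share beyond function is a short promoter sequence, through which some of them were first known as ATF4 targets. The core of the C/EBP-ATF response element was searched as TGATGNAA on both strands, from 250 bases before to 50 bases after the RefSeq gene start (GRCh38.p14). It was found for 12 of the 32 members that had a promoter sequence (37.5%), and for 4.46% of 27305 genes. The holders were CHAC1, ASNS, SLC7A1, SLC1A4, SLC1A5 and the synthetase genes AARS1, CARS1, GARS1, IARS1, MARS1, NARS1 and TARS1. A match is a stretch of letters and not a shown binding site. The 7 stretches below are from genes whose levels are followed later, each read 5′ to 3′ on the gene's own strand with the match in capitals. In 4 of them the match lies on the opposite strand and reads TTGCATCA. ASNS (asparagine synthetase) is shown because its response element is the textbook one, at chr7:97872458-97872487 on the minus strand. CARS1 (chr11:3057407-3057436, minus strand) and MARS1 (chr12:57488053-57488082, plus strand) are shown as synthetase genes without a library far from the rest. IARS1 (chr9:92293692-92293721, minus strand), TARS1 (chr5:33440956-33440985, plus strand), NARS1 (chr18:57621804-57621833, minus strand) and SLC7A1 (chr13:29595663-29595692, minus strand) are shown because they lay far from the other libraries in the third knockout library.
ASNS: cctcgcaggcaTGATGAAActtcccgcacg
CARS1: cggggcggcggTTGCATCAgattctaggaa
MARS1: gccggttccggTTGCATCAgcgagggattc
IARS1: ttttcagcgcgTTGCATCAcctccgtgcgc
TARS1: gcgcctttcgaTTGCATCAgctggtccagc
NARS1: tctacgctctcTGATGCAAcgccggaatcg
SLC7A1: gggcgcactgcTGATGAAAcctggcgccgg

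Few ATF4 response genes differed between the knockout and WT cells beyond the spread of the libraries. Of the 34 tested members 2 fell and none rose (edgeR quasi-likelihood test, Benjamini-Hochberg adjusted over 13965 genes, threshold 0.05). Those 2 were NUPR1 and DDIT4. Over all genes tested 7.84% were called in either direction and 4.63% were called lower, so the 5.88% of members called lay near the background. The median log2 fold change of the members, knockout over WT, was -0.02, with 17 members above 0 and 17 below, against a median of 0.05 over all genes. The knockout and WT libraries did not overlap in 7 of the 34 members (20.6%), against 33.6% of all genes tested. Without the third knockout library the same 2 members were called and the median was -0.01, while 13.2% of all genes were called. An unadjusted p under 0.05 was reached by 4 members, which besides NUPR1 and DDIT4 were PSPH and CBS. DESeq2 called these 4 lower and none higher, but gave no adjusted p for SLC7A1. The labels do not say that the libraries came from separate cultures, so each p-value is set against library spread that could be technical alone. In bulk RNA fewer cells of one kind and less RNA per cell cannot be told apart.

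**Figure D1:**
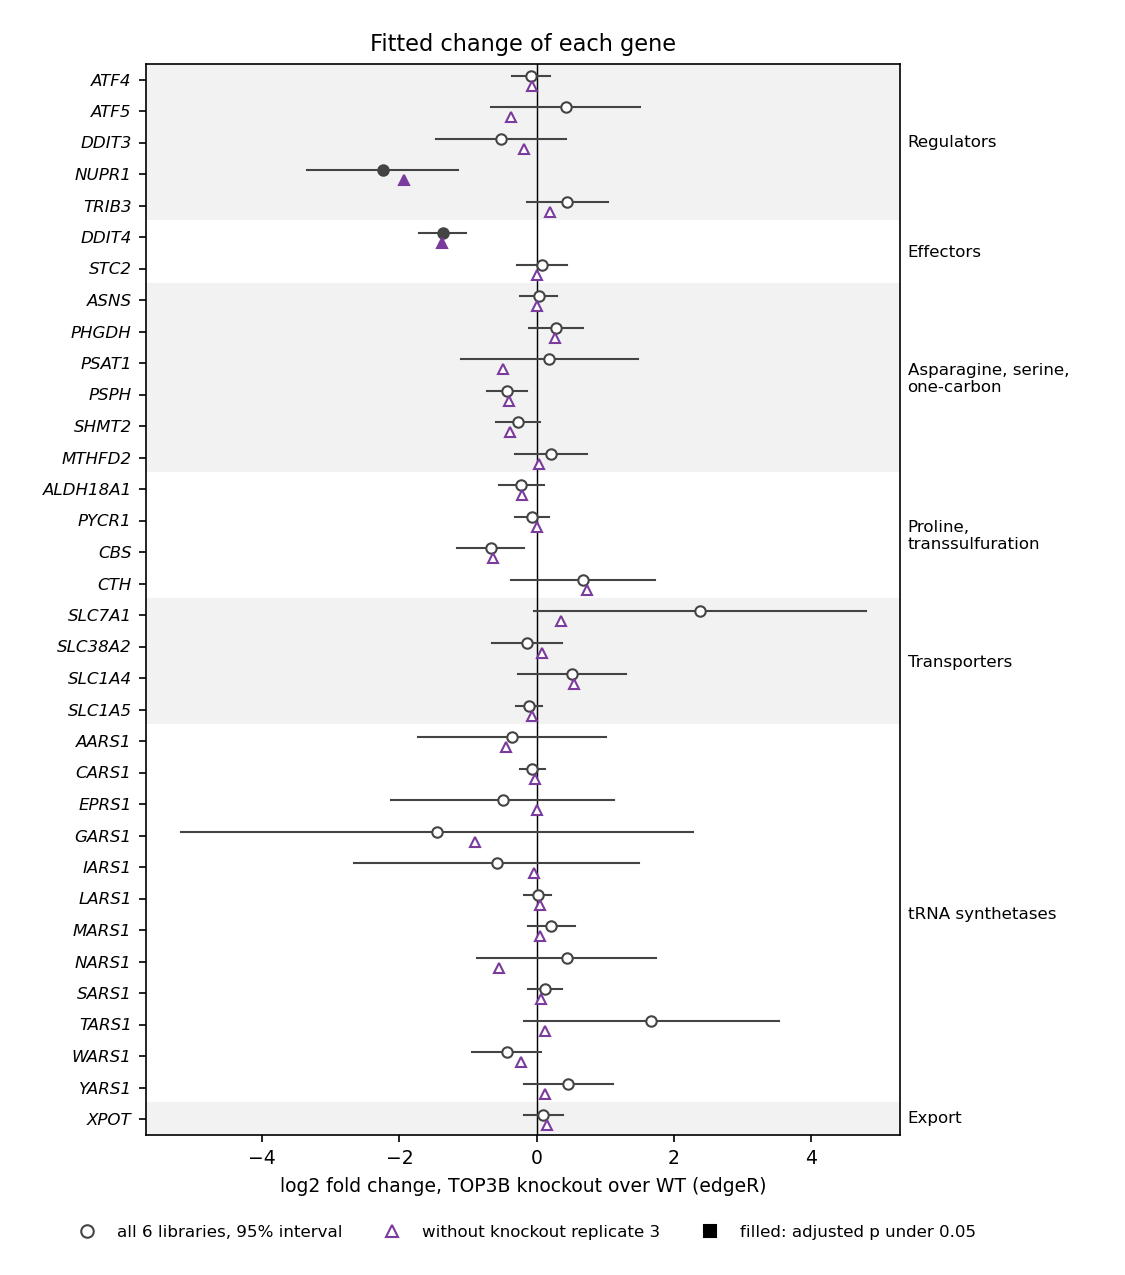
Log2 fold change, knockout over WT, of each tested member, grouped by role, with circles and 95% confidence intervals for all 6 libraries, triangles for the estimate without the third knockout library, and filled marks for an adjusted p under 0.05. NUPR1 and DDIT4 are the 2 members called lower, the intervals of most others include 0, and the widest intervals belong to genes in which the third knockout library stood apart or counts were low.

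The regulators come first. ATF4 itself had 61.0, 61.9 and 58.8 CPM in the knockout libraries, against 72.3, 61.1 and 58.7 CPM in the WT libraries. The groups overlapped, and the log2 fold change was -0.08, with a 95% confidence interval of -0.36 to 0.20 and an adjusted p of 0.713. With 3 libraries a group, any change within these bounds remained compatible with the data. A change somewhat beyond them could also have missed the threshold.

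NUPR1, a small stress-induced chromatin protein, was the member with the largest fall. It had 0.344, 0.453 and 0.154 CPM in the knockout libraries, against 1.59, 1.42 and 1.57 CPM in the WT libraries. Every knockout library lay below every WT library, but the counts behind these values were only 7, 9 and 3 in the knockout and 28, 28 and 32 in WT. The log2 fold change was -2.25 ± 0.46 (SE), a level 4.74-fold lower, with an adjusted p of 0.0347. The call held without the third knockout library (adjusted p = 0.0364) and was lost when any of the other 5 libraries was left out, with adjusted p-values of up to 0.123. With no filter on low counts the adjusted p was 0.0548. Counts this low may include failed estimates, as for other members near 0. In GENCODE v29 (GRCh38) NUPR1 occupies positions 28532708 to 28539174 of chromosome 16, minus strand.

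The other regulators did not pass. DDIT3, which encodes the stress factor CHOP, had 10.3, 8.36 and 3.22 CPM in the knockout libraries, against 9.79, 10.95 and 10.8 CPM in the WT libraries. The third knockout library was the lowest by far, and the log2 fold change of -0.52 was -0.18 without that library. ATF5, a factor related to ATF4 and induced with it, had 13.3, 13.7 and 42.6 CPM in the knockout libraries, against 18.5, 17.5 and 15.9 CPM in the WT libraries. Here the first and second knockout libraries lay below all WT libraries and the third above them, so the log2 fold change of 0.42 became -0.37 without the third (adjusted p = 0.146). TRIB3, a pseudokinase that restrains ATF4, had 12.5, 12.6 and 19.8 CPM in the knockout libraries, against 8.83, 11.4 and 12.6 CPM in the WT libraries, with overlapping groups. DDIT3 overlaps MARS1 and ATF5 overlaps IL4I1 and NUP62 in GENCODE v29. The sources used here do not say whether counting was by strand, so reads shared with these neighbours could not be separated.

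DDIT4 showed the clearest difference. It encodes an inhibitor of mTORC1, the kinase complex that couples amino acid supply to protein synthesis. It had 9.94, 11.6 and 10.8 CPM in the knockout libraries, against 29.95, 28.3 and 25.6 CPM in the WT libraries. The groups were far apart and the third knockout library lay between the other knockout libraries. The log2 fold change was -1.37 ± 0.14 (SE) with a 95% confidence interval of -1.71 to -1.03 and an adjusted p of 0.00493. It passed under each of the 15 alternatives, including each library left out, with adjusted p-values of at most 0.0399.

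DDIT4 occupies positions 72273920 to 72276036 of chromosome 10, plus strand (GENCODE v29, GRCh38), and the tested genes of chromosome 10 had a median log2 fold change of -0.18. DDIT4 is induced by hypoxia as well as by ATF4, so its promoter was also searched for ACGTG, the core of the hypoxia response element, on both strands. The 240 bases at chr10:72273674-72273913 on the plus strand (RefSeq, GRCh38.p14) held 1 such core, in capitals, starting 125 bases before the gene start, and no TGATGNAA. They are shown because DDIT4 is the member whose fall held in every fit.
DDIT4: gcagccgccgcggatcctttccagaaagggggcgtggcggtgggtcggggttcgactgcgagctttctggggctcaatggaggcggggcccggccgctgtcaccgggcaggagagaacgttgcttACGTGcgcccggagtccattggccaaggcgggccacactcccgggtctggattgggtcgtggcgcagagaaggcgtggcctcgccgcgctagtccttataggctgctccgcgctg

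The ACGTG core is common. It was found in 11 of the 32 member promoters (34.4%) and for 24.9% of all genes. Among tested members with a TGATGNAA core, 0 of 11 were called, beside 7.84% of all genes, and the median log2 fold change was 0.03. In this group 0 reached an unadjusted p under 0.05 and 0 were called by DESeq2, which gave no adjusted p for SLC7A1. AARS1 and GARS1 in it were listed close to 0. NARS1, TARS1, IARS1 and SLC7A1, in which the third knockout library stood apart, had SEs of 0.55 to 1.02. Such genes could hardly be called, so the absence of calls does not set this group apart. Among the 17 tested members with a promoter sequence and no such core in the window searched, 1 was called, DDIT4, and the median was 0.08. There DDIT4 and CBS reached an unadjusted p under 0.05 and were called by DESeq2. NUPR1 and PSPH had no promoter sequence and are in neither group. Elements outside the window were not searched, so the groups are not genes with and without an ATF4 element.

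Of the other effectors, STC2, a secreted glycoprotein induced by ATF4, had 77.7, 81.4 and 90.0 CPM in the knockout libraries, against 95.4, 70.2 and 70.1 CPM in the WT libraries. Its groups overlapped and the log2 fold change was 0.08. CHAC1, which breaks down glutathione and is among the most sensitive ATF4 targets, was listed at 0 counts in all 6 libraries. A listed 0 can be a failed estimate as well as an unexpressed gene, and its response was therefore not measured.

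**Figure D2:**
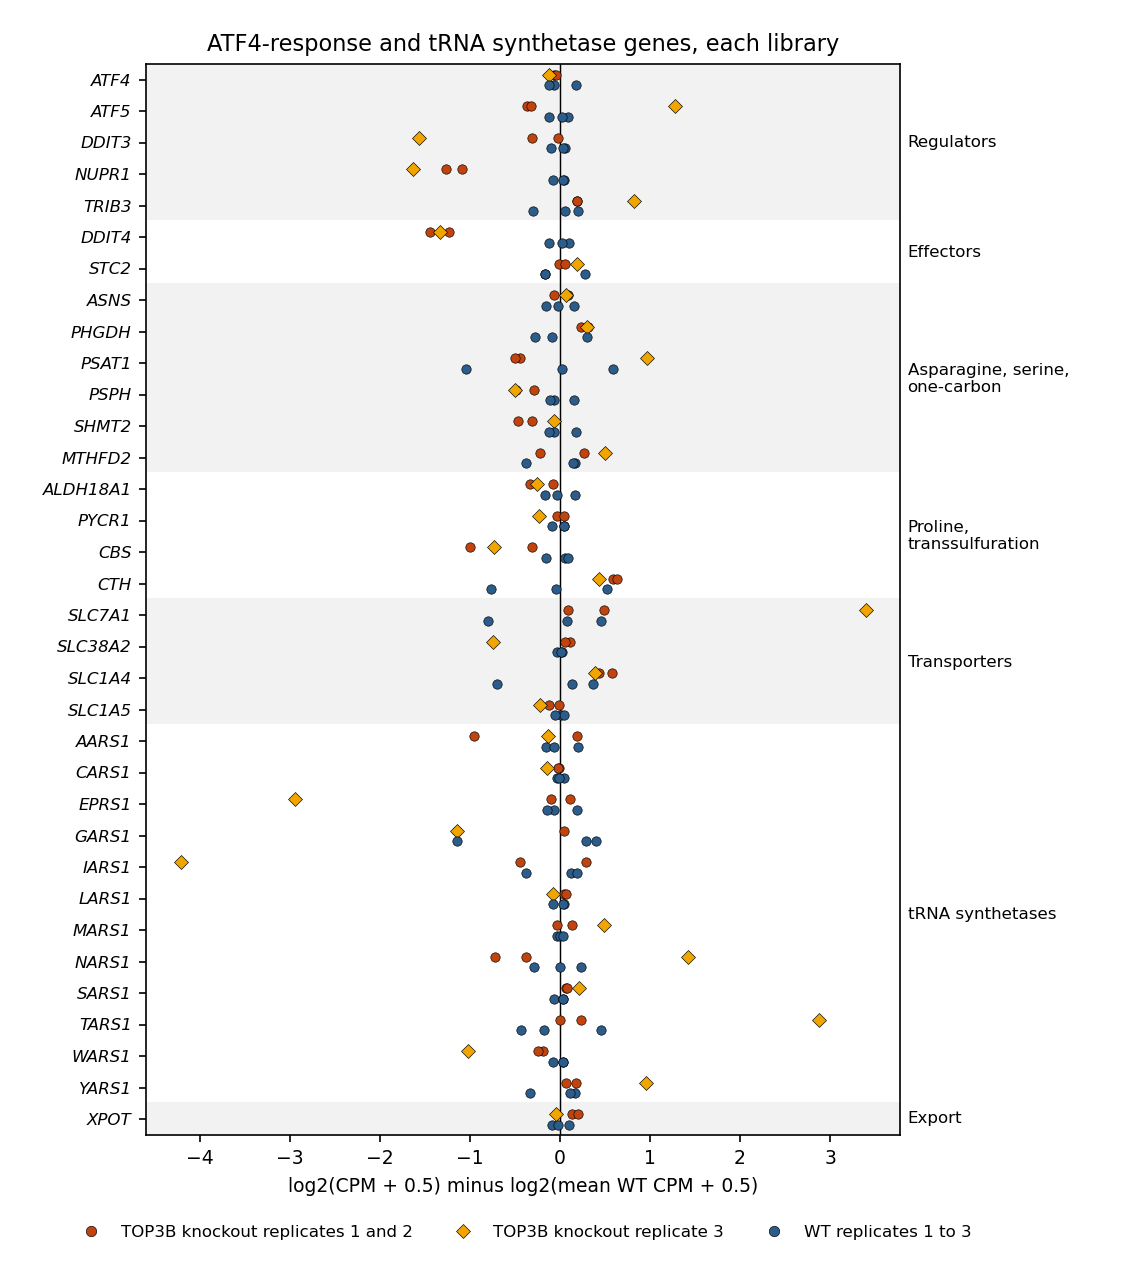
Log2 CPM of each tested member in each library minus its log2 mean WT CPM, after adding the same small constant to both, with members as rows by role. Red points are the first and second knockout libraries, diamonds the third, and blue points the 3 WT libraries. DDIT4 and NUPR1 are low in the 3 knockout libraries, and the third knockout library is set apart in TARS1, SLC7A1, NARS1, ATF5, IARS1, EPRS1 and DDIT3.

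In asparagine and serine synthesis and mitochondrial folate metabolism none of 6 tested enzymes passed, beside 7.84% of all genes tested. They are too few for this to set them apart from that share. Their median log2 fold change was 0.11, and -0.20 without the third knockout library. ASNS, which makes asparagine and is the standard readout of ATF4, had 121, 135 and 133 CPM in the knockout libraries, against 114, 142 and 125 CPM in the WT libraries. The knockout range lay within the WT range, and the log2 fold change was 0.03, with a 95% confidence interval of -0.24 to 0.29. PHGDH, the first enzyme of serine synthesis, had 57.3, 60.4 and 59.9 CPM in the knockout libraries, against 60.0, 40.1 and 45.9 CPM in the WT libraries, also with overlap.

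The next steps of serine synthesis differed in their spread. PSAT1, the aminotransferase, varied in both groups, with 12.2, 11.8 and 33.3 CPM in the knockout libraries, against 17.1, 25.5 and 7.87 CPM in the WT libraries. PSPH, the phosphatase of the last step, had 72.0, 62.6 and 62.4 CPM in the knockout libraries, against 84.6, 98.6 and 81.7 CPM in the WT libraries. All knockout libraries lay below all WT libraries. The log2 fold change of -0.43 had an adjusted p of 0.0839 in edgeR and of 0.0148 in DESeq2, so its call depends on the tool.

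SHMT2, which passes a carbon unit from serine to folate in mitochondria, had 179, 200 and 236 CPM in the knockout libraries, against 279, 236 and 227 CPM in the WT libraries. MTHFD2, the next mitochondrial folate enzyme, had 170, 238 and 280 CPM in the knockout libraries, against 223, 219 and 152 CPM in the WT libraries. Neither separated the groups, and the log2 fold changes were -0.27 for SHMT2 and 0.21 for MTHFD2. Without the third knockout library they were -0.39 for SHMT2 (adjusted p = 0.065) and 0.04 for MTHFD2. ALDH1L2, a mitochondrial folate dehydrogenase, was listed at 0 in all 6 libraries, which as for CHAC1 can be a failed estimate.

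In proline synthesis and transsulfuration none of 4 genes passed, beside 7.84% of all genes tested, and they are too few to differ from that share. ALDH18A1 and PYCR1, which make proline from glutamate, had log2 fold changes of -0.22 and -0.07 with overlapping groups. CBS, the first enzyme that turns homocysteine toward cysteine, had 14.7, 24.1 and 17.9 CPM in the knockout libraries, against 31.2, 32.0 and 26.8 CPM in the WT libraries. The groups did not overlap, and the log2 fold change of -0.67 had an adjusted p of 0.102 in edgeR and of 0.0257 in DESeq2. CTH, which completes the route to cysteine, was low, with 2.95, 3.07 and 2.61 CPM in the knockout libraries, against 0.854, 1.72 and 2.80 CPM in the WT libraries.

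Among the transporters none of 4 tested genes passed, beside 7.84% of all genes tested, and none reached an unadjusted p under 0.05. DESeq2 called none, but gave no adjusted p for SLC7A1. These genes too are too few to differ from the share over all genes. SLC1A5, the main glutamine carrier, was the member with the most CPM, with 1003, 1081 and 935 CPM in the knockout libraries, against 1097, 1128 and 1046 CPM in the WT libraries. Its log2 fold change was -0.12. SLC38A2, a sodium-coupled carrier of neutral amino acids, had 434, 420 and 240 CPM in the knockout libraries, against 410, 393 and 405 CPM in the WT libraries. The third knockout library was the low one, and the log2 fold change of -0.14 was 0.08 without it. SLC1A4, a carrier of alanine, serine and cysteine, had 6.49, 5.84 and 5.63 CPM in the knockout libraries, against 2.39, 5.53 and 4.62 CPM in the WT libraries. The groups just failed to overlap, and the log2 fold change of 0.52 had an adjusted p of 0.387.

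SLC7A1, the carrier of arginine and lysine, had the highest fitted log2 fold change of the members, 2.38, and it rested on 1 library. It had 2.02, 2.82 and 24.5 CPM in the knockout libraries, against 1.99, 0.862 and 2.75 CPM in the WT libraries. The adjusted p was 0.208, and without the third knockout library the log2 fold change was 0.36. SLC7A5, the leucine carrier LAT1, had counts of 0, 5 and 8 in the knockout libraries, against 5, 4 and 17 in the WT libraries. It was too low to be tested. Such counts can be failed estimates as well as low expression, so its response was not measured.

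**Figure D3:**
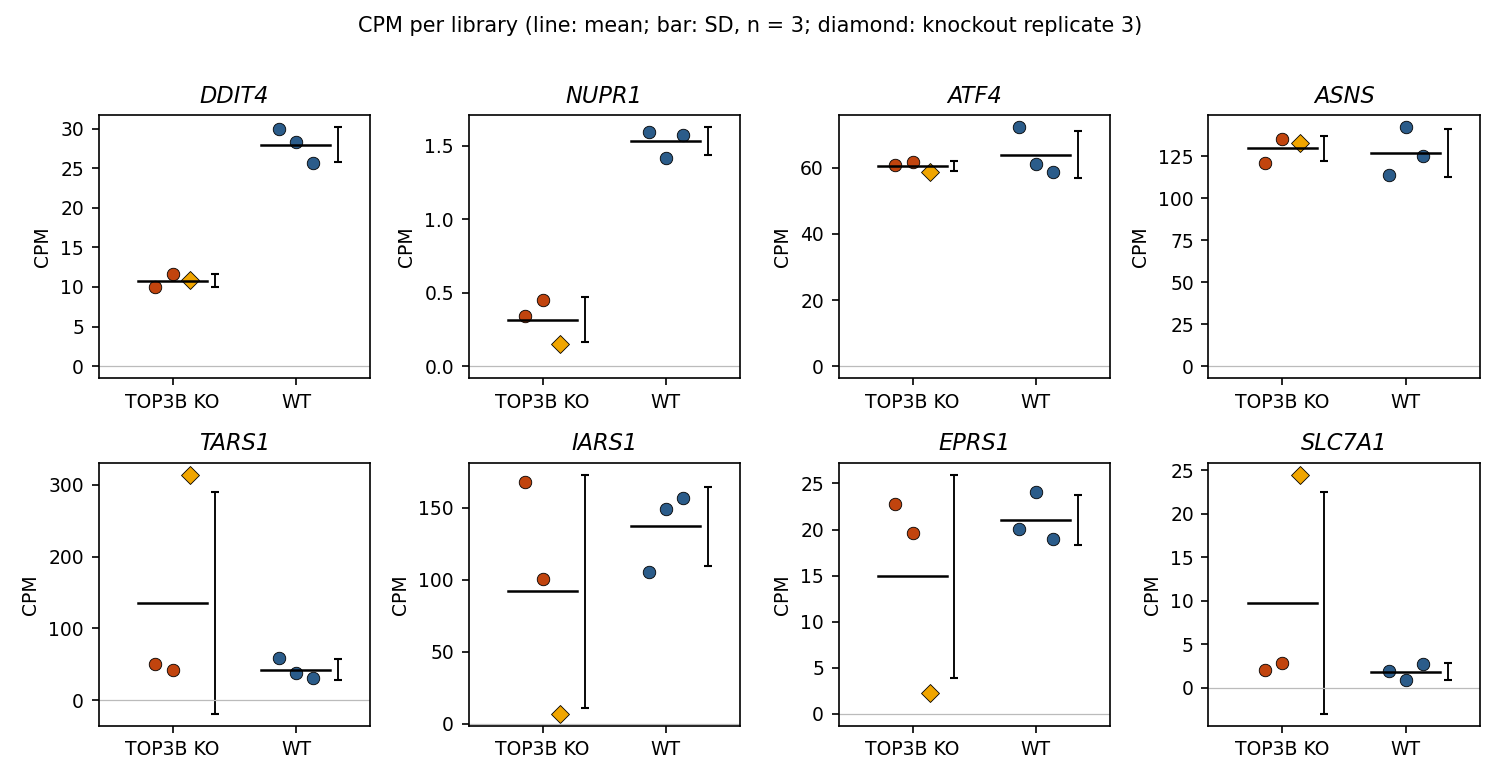
CPM per library of DDIT4, NUPR1, ATF4, ASNS, TARS1, IARS1, EPRS1 and SLC7A1, with the 3 knockout libraries to the left of the 3 WT libraries, a line at each group mean, a bar for the SD (n = 3) and a diamond for the third knockout library. DDIT4 separates the groups in every library, whereas TARS1 and SLC7A1 owe their high knockout means to the third library alone, and IARS1 and EPRS1 owe their low ones to it.

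The cytosolic tRNA synthetases join each amino acid to its tRNA. None of the 12 tested here passed in either direction, beside 7.84% of all genes tested. None reached an unadjusted p under 0.05 and DESeq2 called none. With so few genes, the absence of calls does not set the synthetases apart from that share. Their median log2 fold change was -0.02, and -0.01 without the third knockout library. The tightest intervals came from abundant genes: LARS1 for leucine had a log2 fold change of 0.02 with an interval of -0.18 to 0.21, and CARS1 for cysteine had -0.06 with an interval of -0.25 to 0.12. LARS1 had 309, 313 and 285 CPM in the knockout libraries, against 283, 309 and 306 CPM in the WT libraries. CARS1 had 282, 280 and 257 CPM in the knockout libraries, against 277, 294 and 283 CPM in the WT libraries. For both genes the WT and knockout libraries were interleaved.

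MARS1 for methionine, SARS1 for serine and YARS1 for tyrosine had log2 fold changes of 0.21, 0.12 and 0.46, which were 0.04, 0.07 and 0.12 without the third knockout library. YARS1 had 38.5, 35.4 and 66.3 CPM in the knockout libraries, against 38.0, 26.8 and 36.8 CPM in the WT libraries, so the third knockout library was the high one. SARS1 had 60.3, 60.8 and 66.5 CPM in the knockout libraries, against 54.8, 58.8 and 58.6 CPM in the WT libraries. These groups did not overlap, yet the adjusted p was 0.51. WARS1 for tryptophan, which is also induced by interferon, had 310, 300 and 175 CPM in the knockout libraries, against 364, 364 and 336 CPM in the WT libraries. Its groups did not overlap either, and the log2 fold change of -0.44 had an adjusted p of 0.255. Without the third knockout library the log2 fold change was smaller, -0.23, with an adjusted p of 0.0571.

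TARS1, which charges the threonine tRNA, had 50.1, 42.5 and 314 CPM in the knockout libraries, against 58.5, 37.5 and 31.2 CPM in the WT libraries. The third knockout library held 7.37 times the median of the other 5 libraries, and the log2 fold change of 1.68 (adjusted p = 0.244) was 0.12 without it. NARS1 for asparagine had 57.3, 45.3 and 202 CPM in the knockout libraries, against 88.4, 74.9 and 61.2 CPM in the WT libraries. Without the third library its log2 fold change was -0.55, on the other side of the 0.44 from all 6 libraries.

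The opposite was seen in IARS1 and EPRS1. IARS1 for isoleucine had 168, 100.3 and 6.91 CPM in the knockout libraries, against 105, 149 and 157 CPM in the WT libraries. The median of the other 5 libraries was 21.6 times the third knockout library, while the first knockout library was the highest of all 6. EPRS1 for glutamate and proline had 22.8, 19.6 and 2.30 CPM in the knockout libraries, against 20.05, 24.1 and 18.9 CPM in the WT libraries. Without the third knockout library the log2 fold changes were -0.04 for IARS1 and 0.00 for EPRS1.

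AARS1 for alanine and GARS1 for glycine, which every cell needs, were listed close to 0. AARS1 had 0.246, 1.16 and 0.819 CPM in the knockout libraries, against 0.797, 1.17 and 0.885 CPM in the WT libraries. GARS1 had 13, 0 and 0 counts in the knockout libraries, against 15, 19 and 0 in the WT libraries. Such values may be failed estimates. Both genes are among the 34 tested members and count in the totals and medians above, with log2 fold changes of -0.36 for AARS1 and -1.46 for GARS1, but neither is read as a measured response. XPOT, which carries tRNAs out of the nucleus, had 59.7, 62.7 and 52.8 CPM in the knockout libraries, against 51.3, 58.5 and 53.6 CPM in the WT libraries, with a log2 fold change of 0.10.

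The third knockout library lay at least 2-fold above or below all other 5 libraries in 7 of the 31 members with a mean of at least 1 CPM. ATF5, SLC7A1, NARS1 and TARS1 lay above and DDIT3, EPRS1 and IARS1 below. Over all 12684 genes at this level it did so in 5.99%, 277 above and 483 below, against 0.962% to 1.36% for each of the other libraries. The members listed far from the rest in it thus lay on both sides, also within the synthetases. Among the holders of the TGATGNAA core, TARS1, NARS1 and SLC7A1 were high and IARS1 was low. Among members the median absolute log2 difference of that library from the mean of the other knockout libraries was 0.28, against 0.37 over all genes tested. EIF2AK2, which encodes the RNA-sensing eIF2 kinase PKR and is named here after its values were seen, was also low in that library, with 63.0, 66.5 and 5.83 CPM in the knockout libraries, against 43.5, 51.9 and 43.6 CPM in the WT libraries. The part of this library's state in these values was not tested. Whether some of them are failed estimates, as is possible for AARS1 and GARS1, was not tested either.

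Levels can be compared between genes only per length. In the deposited RPKM, the highest members were SLC1A5 with 94.9 in the knockout and 98.9 in WT, SLC38A2 with 75.4 and 80.5, and SHMT2 with 71.5 and 82.8, all as group means. The length behind these RPKM values exceeded the longest annotated mRNA in 32 of the 33 members where it could be worked out, by a median factor of 5.19, and lay within 3% of the mean genomic span of the gene's transcripts in 24. Genes with long introns therefore have low RPKM values. Per kilobase of the longest annotated mRNA, SLC1A5 still led with 349 CPM per kilobase in the knockout and 378 in WT. CARS1 had 98.9 CPM per kilobase in the knockout and 103 in WT, whereas its RPKM was 9.15 in the knockout and 9.19 in WT. WARS1 had 84.6 CPM per kilobase in the knockout and 115 in WT. The order of members thus depends on the length used, while each gene's ratio between groups does not.

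The pathways around these genes were described with 9 further lists, which together held 151 tested genes. Of these 4 rose and 9 fell, and 138 did not pass, so that 8.61% were called, near the 7.84% over all genes tested. Upstream of ATF4, none of 16 tested genes of the integrated stress response passed, 1 reached an unadjusted p under 0.05 and DESeq2 called none. EIF2S1, the phosphorylated subunit of eIF2, had a log2 fold change of 0.01, and EIF2B2, a subunit of its exchange factor, had -0.09. Without the third knockout library 1 of these genes, EIF2AK2, was called higher, with a log2 fold change of 0.47.

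Of 24 tested genes among other known partners and targets of ATF4, 5 fell and none rose, and the median log2 fold change was -0.39. The 20.8% called stands beside 7.84% of all genes, but the list was chosen with results of these data known, so its share is a description only. Only 3 genes of the list were called with limma-trend at either pseudocount, and 3 when any library other than the third knockout one was left out. DESeq2 called 8, and without the third knockout library 7 were called, all lower. VEGFA, the angiogenic factor, had 188, 184 and 180 CPM in the knockout libraries, against 415, 408 and 499.8 CPM in the WT libraries, and a log2 fold change of -1.26. SLC7A11, the cystine carrier, had 180, 195 and 151 CPM in the knockout libraries, against 360.3, 389 and 443 CPM in the WT libraries, and a log2 fold change of -1.18. For both genes the knockout libraries lay far below the WT libraries, and both passed with each library left out. The other 3 were BCAT1 (-0.67), SLC33A1 (-0.58) and SQSTM1 (-0.39), which are named outside the rule. BCAT1 also passed with each library left out, whereas SLC33A1 and SQSTM1 passed only without the third knockout library. As background, VEGFA and DDIT4 are also known targets of the hypoxia factor HIF1 and SLC7A11 of the oxidative stress factor NRF2, and the part of these factors was not tested.

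Synthetases outside the members gave no call either, beside 7.84% of all genes tested. These lists are too short for this to set them apart. None of 10 other cytosolic synthetase and scaffold genes passed, with a median log2 fold change of -0.30, 2 with an unadjusted p under 0.05 and 1 called by DESeq2. The most abundant were KARS1 for lysine, with a log2 fold change of -0.48 and an adjusted p of 0.135, and QARS1 for glutamine, with -0.02. None of 13 mitochondrial synthetases passed, with 3 at an unadjusted p under 0.05 and 1 called by DESeq2. CARS2 for cysteine had a log2 fold change of 0.43 (adjusted p = 0.0661) and VARS2 for valine had 0.22, or -0.13 without the third knockout library.

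In the rest of serine and folate metabolism 3 of 22 tested genes rose and 1 fell, or 18.2% called beside 7.84% of all genes. This list too was chosen with results of these data known, so its share is a description only. The 4 calls became 2 with limma-voom, 0 or 1 when a library other than the third knockout one was left out, and 6 without that one. TYMS, the thymidylate synthase of DNA synthesis, had 15.6, 15.6 and 31.8 CPM in the knockout libraries, against 8.77, 6.79 and 7.33 CPM in the WT libraries. ALDH1L1, the cytosolic relative of ALDH1L2, had 23.9, 22.7 and 28.9 CPM in the knockout libraries, against 50.2, 47.9 and 48.5 CPM in the WT libraries. The groups were separate for both genes, with log2 fold changes of 1.46 and -0.96, but each passed only without the third knockout library when libraries were left out singly. TYMS also missed the threshold with limma-voom (adjusted p = 0.0584) and limma-trend (adjusted p = 0.0885 and 0.0588). SHMT1 (0.94), the cytosolic partner of SHMT2, and MAT2A (0.37), which makes S-adenosylmethionine, also rose and are named outside the rule. SHMT1 passed in 4 of the 6 fits without a library and MAT2A in 1.

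Amino acid handling beyond the members is given by list, beside the 7.84% called over all genes tested. These lists too were chosen with results of these data known, so their shares are descriptions only. Of 16 other transporters 2 fell (12.5%), SLC7A11 and SLC43A2, a carrier of large neutral amino acids, with a log2 fold change of -0.87. The median of these transporters was -0.22, with 4 above 0 and 12 below. The groups did not overlap in 56.2% of them, against 33.6% of all genes tested. None of 12 other amino acid enzymes passed, 2 reached an unadjusted p under 0.05 and DESeq2 called 2. PYCR3, an enzyme of proline synthesis, had a log2 fold change of -0.25, and of -0.38 with an adjusted p of 0.0422 without the third knockout library. Of 25 genes of amino acid sensing by mTORC1 2 fell (8%). These were CASTOR1, an arginine sensor, with a log2 fold change of -1.50, and LAMTOR3, a scaffold subunit on lysosomes, with -1.09. In tRNA processing and transport 1 of 17 rose (5.88%). This was SSB, which encodes the La protein that binds new tRNA precursors, with a log2 fold change of 0.54. SLC43A2, CASTOR1, LAMTOR3 and SSB passed only without the third knockout library when each library was left out in turn, and SSB also missed the threshold with no filter on low counts (adjusted p = 0.0692).

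**Figure D4:**
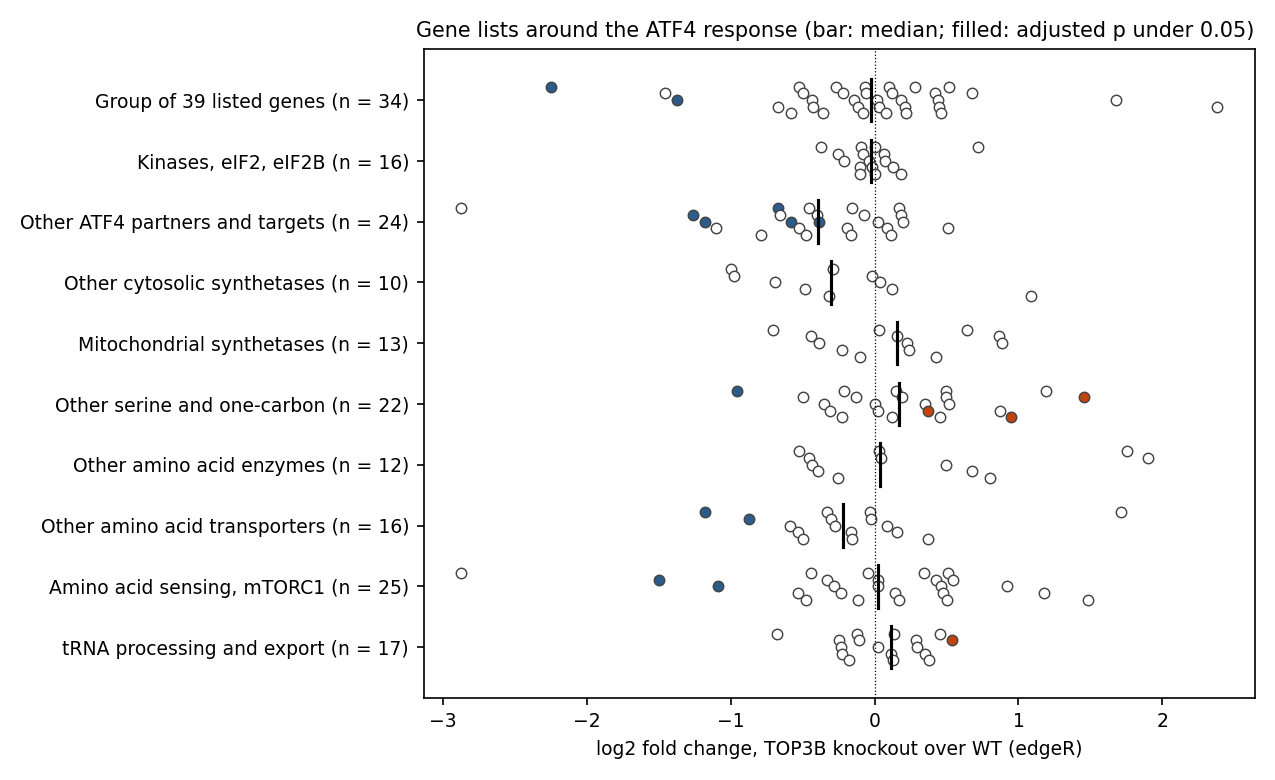
Log2 fold change, knockout over WT, of every tested gene among the members (top row) and in each of the 9 neighbouring lists, with called genes filled and the median of each list as a bar. The members scatter on both sides of 0 around a median of -0.02, and the other ATF4 partners and targets have a median of -0.39.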

How the data were processed

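RNA-seq libraries (ribosomal RNA depleted, directional kit, paired-end, per the labels' protocols) gave 2 tables. The authors deposited, for each gene in each library, an estimated count in whole numbers and an RPKM value. Salmon 1.10.1 and the hg19 build are named in the submitters' processing notes, and the sources used here do not give the part each played. No count had to be rounded, all columns were mapped, and 1 gene entry named differently in both tables was left out.

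After filterByExpr, the counts of all genes were fitted in edgeR 4.0.16 (R 4.3.3) with TMM scaling and the quasi-likelihood F test, 3 knockout against 3 WT libraries without covariates, with Benjamini-Hochberg adjustment and a threshold of 0.05. Standard errors and 95% intervals were derived from the F statistic. Fold changes are knockout over WT. Alternatives were DESeq2 1.42.0, limma-voom and limma-trend (limma 3.58.1; log2 of RPKM plus 1 or 0.1), 3 other scalings, no filter, a filter of 1 CPM in 3 libraries, and each library left out. The WT labels number the replicates and the knockout labels do not, so no pairs were formed. Intervals for counting error are not given because the counts are estimates.

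Genes were placed with GENCODE v29 (GRCh38), and promoters came from RefSeq (GRCh38.p14), both matched by symbol. Named genes were all members, TOP3B and, per neighbouring list, the 2 called genes with the largest change and a mean of at least 1 CPM, or the 2 most abundant where none was called. One gene that this rule named is not reported here. The members and lists were chosen with earlier results of these data known. The marker lists gave 2 called mesenchymal genes, CDH11 higher (log2 fold change 2.04) and FN1 lower (-1.89), and 0 of 2 tested colon genes, CDH1 (-0.27) and ELF3 (0.27), with 0 at an unadjusted p under 0.05 and 0 called by DESeq2.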

Additional observations from a re-analysis of the deposited data

How the results depend on the processing

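No member was called higher under any of the 15 alternatives, though DESeq2 gave no adjusted p for SLC7A1. The count of members called lower, 2, was 4 with DESeq2, 1 with no filter on low counts and 1 to 2 with a library left out. In the neighbouring lists 4 higher genes became 9 with DESeq2, 2 with limma-voom, 2 with no filter and 0 to 10 with a library left out, and 9 lower genes became 15 with DESeq2 and 3 to 15 with a library left out, with 10 and 15 reached without the third knockout library. Over all genes 448 higher calls became 916 with DESeq2 and 87 to 774 with a library left out, and 647 lower calls became 1283 and 136 to 1125. The cause was not tested.

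Of 507 values of single members under an alternative, 486 kept direction and side of the threshold, and all 13 that changed sign came from leaving out a library. For these members the log2 fold change then ranged from -0.142 to 0.005 for ATF4, -0.37 to 0.71 for ATF5 and -0.0554 to 0.12 for ASNS. It ranged from -0.49 to 0.62 for PSAT1, -0.29 to 0.0766 for SLC38A2 and -0.83 to 0.0532 for AARS1. The range was -0.94 to 0.004 for EPRS1, -0.034 to 0.0487 for LARS1 and -0.55 to 0.79 for NARS1. Some named genes outside the members also changed sign with a library left out. Their ranges were -0.0756 to 0.0609 for EIF2S1, -0.0815 to 0.0926 for QARS1, -0.13 to 0.41 for VARS2 and -0.0106 to 0.57 for ELF3. EIF2S1 and QARS1, unlike the members, changed sign under other alternatives too. EIF2S1 was at -0.0074 with DESeq2 and -0.0075 with its size factors. QARS1 was at 0.0453 and 0.0465 with limma-trend on RPKM plus 1 and 0.1, at 0.0452 with library size alone and at 0.0192 with upper quartile scaling. The cause was not tested.

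No paired analysis was possible because the knockout labels carry no replicate numbers. With 4 residual degrees of freedom, changes of low genes such as CTH or AARS1 were not detectable unless large.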
